A study of Rattus norvegicus with 48 samples.

Results

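The chemokines, interleukins and their receptors measured in rat kidney comprised 84 of the 7997 genes on the arrays. They were taken as every gene whose probe sets carry 1 platform symbol that begins with the name of a chemokine, a chemokine receptor or an interleukin followed by a digit. The 84 genes were read by 589 probe sets, 4 of the genes by a single probe set. By role they were 14 CC chemokines, 11 CXC chemokines, 2 other chemokines (Cx3cl1 and Xcl1), 14 chemokine receptors, 19 interleukins and 24 interleukin receptors, antagonists or decoys. Each gene's value was its log2 intensity, summarised over its probe sets.

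Kidneys of male rats, labelled as 12 weeks old, were studied in 4 strains named F, L, FL and LF, which the labels do not expand. In each strain, day 7 and day 10 groups had indole-3-carbinol by gavage at 100 mg/kg/day for that many days, and the day 0 group had the vegetable oil carrier. Each of the 12 strain-by-day groups had 4 arrays, 48 in all. The labels do not give the genetics; as the study is known, the animals carry a renin transgene under the Cyp1a1 promoter, which indole-3-carbinol switches on to raise blood pressure, and FL and LF are reciprocal strains bred from F and L. That promoter acts mainly in liver. No group had the carrier at day 7 or day 10, so the compound, the days of gavage and the day of collection cannot be told apart. The labels do not say if rats were pooled on an array. The p-values below therefore set differences of group means against the spread between arrays, which may not be the spread between rats.

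Chemokines are small secreted proteins that bind receptors on the cell surface and draw cells along their gradients. Homeostatic chemokines such as Cxcl12 and Cxcl13 are made in resting tissue, while others, such as the interferon-induced Cxcl9, Cxcl10 and Cxcl11, are made in inflammation. Interleukins carry signals between immune, epithelial and stromal cells, many of them through receptors that activate JAK kinases and STAT factors.

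Across the 12 groups the widest range of group means was that of Cxcl13, 2.05 on the log2 scale (5.31 in LF day 7 to 7.37 in L day 0). Ccl24 followed with 1.44, Cxcr5, which has 1 probe set, with 1.35, Cxcl12 with 1.18 and Il33 with 1.14. Of the 84 members 20 passed the test in at least 1 of 16 comparisons, and 64 passed in none. How many of all genes passed in at least 1 was not counted, so the 20 cannot be set against a background. In single comparisons from 0% to 13.2% of all genes passed. The test was limma with Benjamini-Hochberg adjustment over all 7997 genes, and a gene passed at an adjusted p under 0.05.

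The tissue and the arrays were checked once. Of 8 kidney marker genes 7 were measured, with mean levels from 7.02 to 12.75 (Umod). At day 7, 4 of the 7 passed as lower than at day 0, against 3.88% of all genes. At day 10 only Aqp2, a collecting duct water channel, passed as lower (-0.61), against 1.06% of all genes. Array medians ran from 6.03 to 6.61, and their means were 6.38 ± 0.12, 6.28 ± 0.13 and 6.37 ± 0.16 (SD, n = 16 each) on days 0, 7 and 10. The replicate number from 1 to 4, under which arrays share the start of their file names in the labels, went with array medians of 6.45, 6.39, 6.32 and 6.22. Every number holds all 12 groups.

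The upstream sequences of 4 CXC ligands that moved with the day are shown because 3 of them, Cxcl9, Cxcl11 and Cxcl13, lie on chromosome 14, Cxcl11, Cxcl10 and Cxcl9 as direct neighbours, yet did not all move the same way. Each runs from 250 bases before to 50 bases after the annotated start, 5′ to 3′ on the gene's strand, from RefSeq on build GRCr8. Cxcl12 is chr4:152060531-152060830 (+), Cxcl13 chr14:13917871-13918170 (-), Cxcl9 chr14:16006916-16007215 (+) and Cxcl11 chr14:15973478-15973777 (+). Capitals mark matches, on either strand, to GCGTG (the core of the aryl hydrocarbon receptor element), the kappa-B type motif (GGG and CC with 5 bases of any kind between them) or TTCNNNGAA (STAT type).
Cxcl12: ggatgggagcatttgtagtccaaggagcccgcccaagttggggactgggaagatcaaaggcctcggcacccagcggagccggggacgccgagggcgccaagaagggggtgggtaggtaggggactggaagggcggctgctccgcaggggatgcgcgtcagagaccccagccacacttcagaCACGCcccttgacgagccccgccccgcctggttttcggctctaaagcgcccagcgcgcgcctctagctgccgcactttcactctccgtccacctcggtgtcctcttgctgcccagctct
Cxcl13: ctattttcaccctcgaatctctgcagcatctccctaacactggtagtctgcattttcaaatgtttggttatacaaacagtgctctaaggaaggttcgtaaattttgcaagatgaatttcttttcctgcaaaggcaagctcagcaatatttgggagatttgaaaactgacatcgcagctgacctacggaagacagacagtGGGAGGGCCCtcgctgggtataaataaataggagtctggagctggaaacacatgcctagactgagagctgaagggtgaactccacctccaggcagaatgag
Cxcl9: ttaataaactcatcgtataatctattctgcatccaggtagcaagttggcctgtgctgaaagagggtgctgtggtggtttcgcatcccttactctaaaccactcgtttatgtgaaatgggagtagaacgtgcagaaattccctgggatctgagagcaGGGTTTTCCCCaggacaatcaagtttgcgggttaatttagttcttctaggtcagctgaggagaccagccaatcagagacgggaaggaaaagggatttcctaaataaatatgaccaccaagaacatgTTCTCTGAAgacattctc
Cxcl11: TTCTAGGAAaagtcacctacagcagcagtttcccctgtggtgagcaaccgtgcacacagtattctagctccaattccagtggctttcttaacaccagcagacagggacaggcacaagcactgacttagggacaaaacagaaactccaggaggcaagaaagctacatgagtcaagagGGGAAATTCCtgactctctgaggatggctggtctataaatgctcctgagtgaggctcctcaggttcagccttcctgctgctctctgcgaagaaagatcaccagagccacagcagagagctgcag

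Cxcl12 held GCGTG at -69 to -65 and neither of the other motifs. Cxcl13 held the kappa-B type motif at -51 to -42. Cxcl9 held 2 overlapping matches to the kappa-B type motif, at -94 to -85 and -93 to -84, and TTCNNNGAA at 33 to 41, and Cxcl11 held the kappa-B type motif at -74 to -65 and TTCNNNGAA at -250 to -242. These short motifs are common: GCGTG was in 29.7% of the 33469 promoters of the table and in 19 of 64 member promoters found there by symbol (29.7%). The kappa-B type motif was in 47.3% and in 34 of 64 (53.1%), and TTCNNNGAA in 8.9% and in 7 of 64 (10.9%). A match describes the letters and is not a binding site.

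At day 7, CXC ligands led by Cxcl13 and Cxcl12 were lower than at day 0, and the CC ligands Ccl28 and Ccl21 were higher. As means of the 4 strains, 9 of 84 members passed the test (10.7%, against 4.98% of all genes), 7 lower (3.88% of all genes) and 2 higher (1.1% of all genes). The lower members were 5 of the 11 CXC ligands, Cx3cl1 and Il15, and the higher ones were 2 of the 14 CC ligands. The median log2 difference was 0.02 over the members and -0.03 over all genes. With the replicate number as a block 14 members passed, while the share over all genes went from 4.98% to 11.2%, the further ones being Il13ra1 (adjusted p = 0.0187), Il33 (0.022), Il18 (0.0243) and Il10ra (0.0319), all lower, and Il11 (0.0385), which was higher. Without strain LF 3 members passed at day 7 (0.825% of all genes), and 3 passed without replicate number 2 (0.888%) or number 3 (1.86%). Single arrays moved the count as well: it was 4 without LF day 7 replicate 3 (3.7% of all genes), and 5 (3.38% to 4.66%) without any 1 of F day 0 replicate 1, F day 7 replicate 3, L day 0 replicate 3, L day 7 replicate 4, FL day 0 replicates 1 and 2, LF day 0 replicates 2 and 3 and LF day 7 replicate 2.

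Cxcl12 binds Cxcr4 and Ackr3 and holds stem and immune cells in tissue. Over the 4 strains its level at day 0 ran from 7.30 through a median of 7.75 to 8.19 (16 arrays), and at day 7 from 6.43 through 7.13 to 7.39. Only the edges of these ranges overlapped. The log2 difference was -0.75 ± 0.08 (SE), 1.68-fold lower, with a limma adjusted p of 1.28e-07. All 10 probe sets of Cxcl12 were lower, by -1.26 to -0.07, and within replicate numbers 1 to 4 the difference was -0.81, -0.71, -0.66 and -0.82.

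Cxcl13 guides B cells through its receptor Cxcr5. Its level ran from 6.45 through 6.99 to 8.11 at day 0 and from 4.66 through 6.04 to 6.81 at day 7, so the ranges overlapped in part. The log2 difference was -1.15 ± 0.17, 2.22-fold lower (limma adjusted p = 1.86e-05), the largest among the members at day 7. All 6 probe sets were lower, by -1.68 to -0.45, and the difference within replicate numbers was -0.70, -1.54, -1.32 and -1.04. In a bulk tissue, fewer cells of a type and less RNA per cell cannot be told apart.

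Cxcl9 and Cxcl10, both ligands of Cxcr3 on activated T cells, were lower as well. Cxcl9 ran from 2.73 through 3.44 to 4.06 at day 0 and from 2.68 through 3.04 to 3.39 at day 7, a difference of -0.37 ± 0.08 (limma adjusted p = 0.00268) that 6 of its 7 probe sets shared. Cxcl10 ran from 5.49 through 6.06 to 6.71 and from 5.37 through 5.68 to 6.41, a difference of -0.36 ± 0.10 (limma adjusted p = 0.0259) that its 7 probe sets shared. The ranges of both genes overlapped between the days. The Cxcl10 call ended when each array's median was subtracted (adjusted p = 0.0504), with quantile normalization (0.0515), without strain LF (-0.33, 0.0934), without replicate number 2 or number 3 (-0.24 and 0.369 for the latter), and without any 1 of LF day 0 replicate 2, LF day 0 replicate 3 and LF day 7 replicate 3.

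Smaller differences at day 7 lay close to the threshold. Cxcl16, a transmembrane chemokine and scavenger of oxidised lipoprotein, went from a median of 9.88 to 9.60 (-0.22 ± 0.06, limma adjusted p = 0.0352). Cx3cl1, the membrane-bound fractalkine of endothelium and tubules, went from 8.96 to 8.71 (-0.22 ± 0.07, 0.0458). Il15, which sustains natural killer and memory T cells, went from 4.77 to 4.40 (-0.34 ± 0.11, 0.049). Their day ranges overlapped, and 15, 27 and 30 of the 48 single arrays, respectively, ended the call when left out. Cx3cl1 also lost it with the array median subtracted (-0.16, adjusted p = 0.118), and without strain LF the differences of Cxcl16 (-0.12, 0.644), Cx3cl1 (-0.19, 0.357) and Il15 (-0.24, 0.556) did not pass. Each of these calls also ended without 3 of the 4 replicate numbers.

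Ccl28 and Ccl21 rose at day 7. Ccl28, an epithelial chemokine of mucosal surfaces, had a median of 4.85 at day 0 (4.57 to 5.18) and of 5.14 at day 7 (4.75 to 5.71), a difference of 0.33 ± 0.08 (limma adjusted p = 0.0127) shared by its 8 probe sets but not past the test without replicate number 1, 2 or 3 or without strain LF (0.29, 0.239). Ccl21, which draws T cells and dendritic cells through Ccr7, had a median of 5.57 (5.02 to 6.21) and of 5.86 (5.37 to 6.77), a difference of 0.32 ± 0.10 (limma adjusted p = 0.0453) shared by its 5 probe sets. The ranges overlapped for both genes. The Ccl21 call ended with the mean of probe sets (adjusted p = 0.175), without strain LF (0.353), without 3 of the 4 replicate numbers, and without any 1 of 21 single arrays. Rats carry several near-identical Ccl21 copies, and how probes divide between them is not known here.

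**Figure D1:**
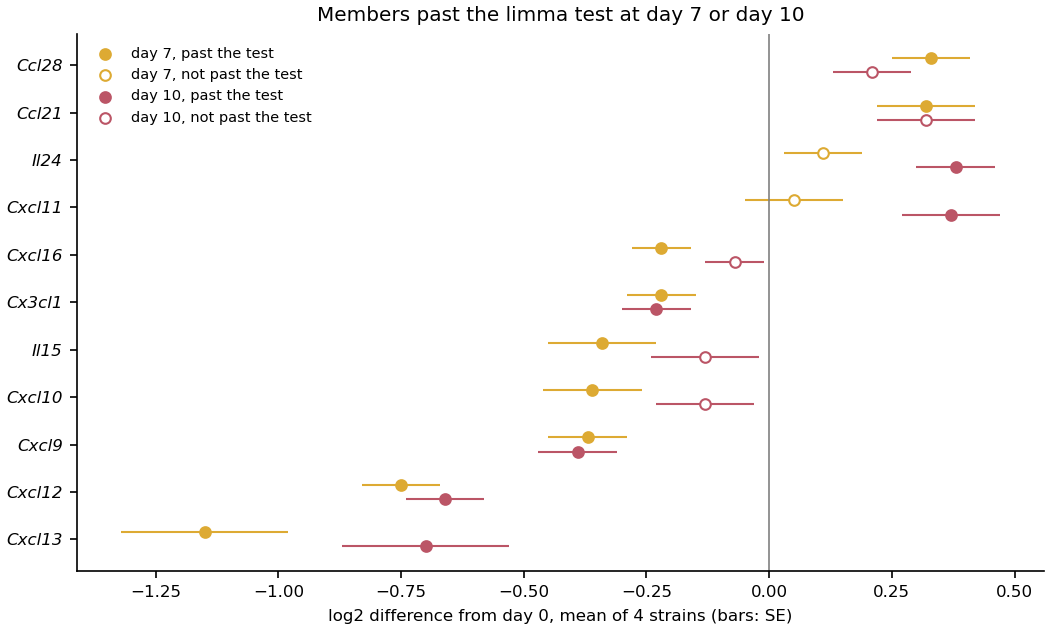
Log2 difference from day 0 (x axis, mean of 4 strains, bars show the limma SE) at day 7 (yellow) and day 10 (red) for the 11 members that passed the test at either day; filled points passed and open points did not. Cxcl13 and Cxcl12 lie farthest to the left at both days, while Il24 and Cxcl11 passed at day 10 alone.

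At day 10, 6 of 84 members passed (7.14%, against 2.3% of all genes), 4 lower (1.06% of all genes) and 2 higher (1.24% of all genes). Cxcl12, Cxcl13, Cxcl9 and Cx3cl1 were the lower ones, and they had also been lower at day 7. Il24 and Cxcl11 were the higher ones. Both days were compared with the same day 0 arrays. With the replicate number as a block Ccl21 passed too (0.32, adjusted p = 0.042), when the share over all genes was 3.24%, and without strain LF 3 members passed (0.925%). Leaving out replicate number 1, 2 or 3 left 2, 1 and 3 members (1.16%, 1.13% and 0.95% of all genes).

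Cxcl12 ran from 6.62 through 7.15 to 7.61 at day 10, 1.58-fold below day 0 (-0.66 ± 0.08, limma adjusted p = 9.5e-07). Cxcl13 ran from 5.21 through 6.51 to 7.59, 1.62-fold below day 0 (-0.70 ± 0.17, 0.0159), and its difference without strain LF was -0.69 with an adjusted p of 0.101. Its call also ended without replicate number 1, 2 or 3, and that of Cxcl9 without number 2. Cxcl9 ran from 2.59 through 2.97 to 3.46 (-0.39 ± 0.08, limma adjusted p = 0.0018). The ranges of Cxcl12, Cxcl13 and Cxcl9 at day 10 overlapped those at day 0. Cx3cl1 ran from 8.15 through 8.70 to 8.96 against 8.45 through 8.96 to 9.13 at day 0 (-0.23 ± 0.07, limma adjusted p = 0.0482), and 32 of 48 single arrays, each of the 4 replicate numbers and strain LF (adjusted p = 0.145) ended its call when left out.

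Il24 is a cytokine of the Il10 family that acts on epithelial cells. Its level ran from 2.53 through 3.01 to 3.27 at day 0, from 2.74 through 3.04 to 3.52 at day 7 and from 2.73 through 3.37 to 3.79 at day 10, and most day 10 arrays lay above the highest day 0 array. The day 10 difference was 0.38 ± 0.08, 1.30-fold (limma adjusted p = 0.00225), shared by its 7 probe sets. Within replicate numbers 1 to 4 it was 0.70, 0.53, 0.24 and 0.05, and the call ended without number 1 or number 2. Without strain LF it was 0.32 with an adjusted p of 0.0737.

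Cxcl11, which binds Cxcr3 and Ackr3, ran from 5.88 through 6.31 to 7.35 at day 0, from 5.73 through 6.47 to 7.04 at day 7 and from 6.35 through 6.67 to 7.58 at day 10. The ranges overlapped, and the day 10 difference was 0.37 ± 0.10 (limma adjusted p = 0.0247), shared by its 4 probe sets. Its neighbours on chromosome 14, Cxcl10 (-0.13) and Cxcl9 (-0.39), had differences of the other sign at day 10, and Cxcl10 did not pass. The Cxcl11 call ended with the mean of probe sets (adjusted p = 0.0651), without each of the 4 replicate numbers (adjusted p up to 0.208), and without any 1 of FL day 10 replicate 3, L day 10 replicate 1, LF day 10 replicate 1 and LF day 10 replicate 4.

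**Figure D2:**
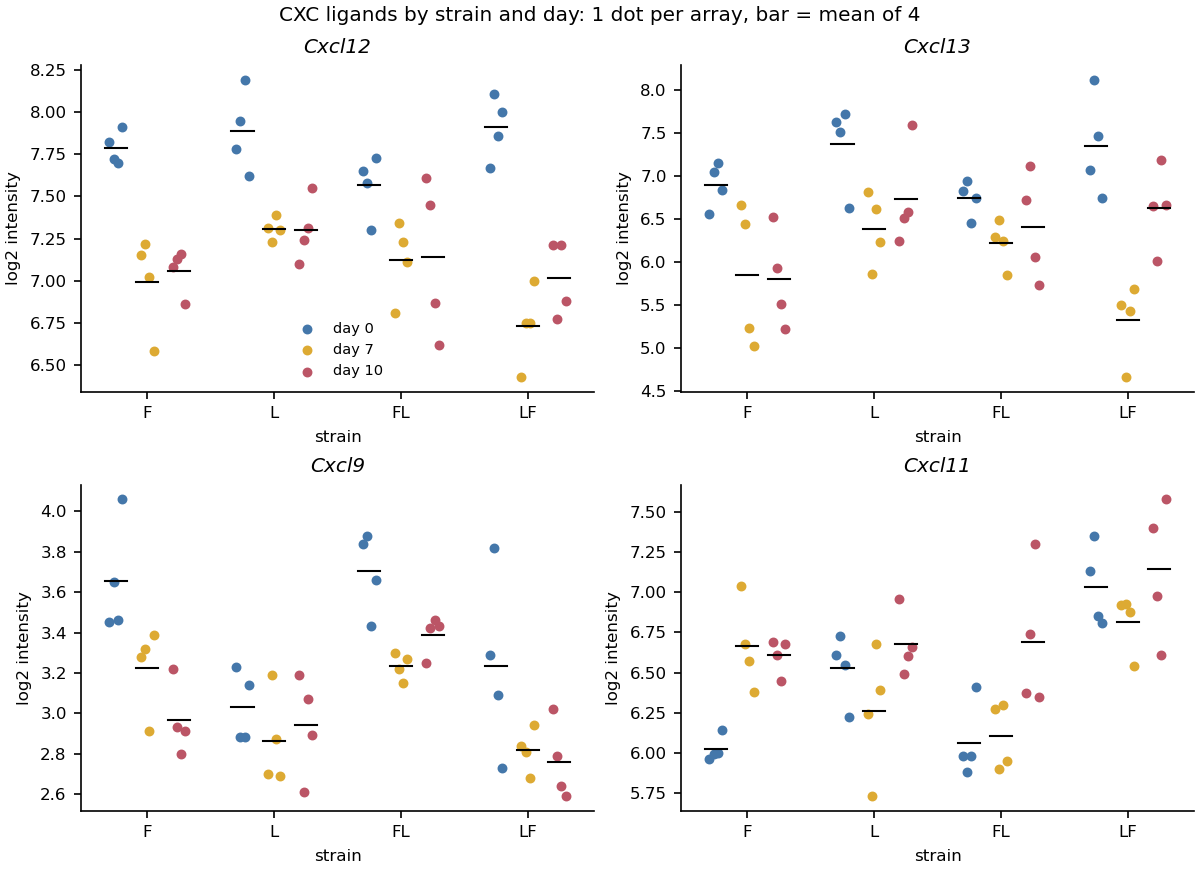
Log2 intensity of Cxcl12, Cxcl13, Cxcl9 and Cxcl11 on each array (1 dot, coloured by day) by strain, with bars at the mean of 4 arrays. In LF the Cxcl12 arrays lie at 7.67 to 8.11 at day 0 and at 6.43 to 7.00 at day 7, and for Cxcl11 the LF arrays lie above most of those of other strains.

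Between day 10 and day 7, 0 of 84 members passed (limma; 0.075% of all genes did), and 17 members had an unadjusted p under 0.05 (20.2%, against 13.1% of all genes). Il24 (0.27 ± 0.08, adjusted p = 0.182), Cxcl11 (0.32 ± 0.10, 0.205) and Cxcl6 (-0.31 ± 0.09, 0.211), a neutrophil chemokine, had the smallest p. Cxcl13 was 0.45 ± 0.17 higher at day 10 than at day 7 (adjusted p = 0.319). A change between the treated days was thus not detectable for any member with these arrays.

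No receptor among the members passed at day 7 or day 10 in the fit without a block. With the replicate number as a block Il13ra1 and Il10ra passed as lower at day 7, as given above. By limma without it 0 of 14 chemokine receptors passed at day 7 or at day 10, with 4 and 1 at an unadjusted p under 0.05. Of 24 interleukin receptors, antagonists or decoys 0 passed, with 2 at an unadjusted p under 0.05 at each day. Over all genes 4.98% passed at day 7 and 2.3% at day 10, and 21% and 9.7% had an unadjusted p under 0.05. The receptors of the ligands above were looked at after their values were seen. Cxcr4 differed by 0.23 ± 0.10 at day 7 (adjusted p = 0.194) and by 0.00 ± 0.10 at day 10 (0.999), and Ackr3 by 0.01 and -0.14. Cxcr5 differed by 0.37 ± 0.15 at day 7 (adjusted p = 0.139), opposite in sign to Cxcl13, and by 0.25 at day 10. Cxcr3 differed by 0.04 and 0.08, Cx3cr1 by -0.23 ± 0.10 (adjusted p = 0.156) and -0.02, and Ccr7 by 0.13 and 0.03. Whether ligands and receptors differ in how often they pass was not tested.

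Within strains, Cxcl12 passed in F and in LF, and its direction was the same in L and FL. In F, 1 member passed at day 7 (0.688% of all genes did) and 2 at day 10 (0.375%), all lower (0.25% and 0.238% of all genes were lower). Cxcl12 read 7.82, 7.72, 7.70 and 7.91 on the F day 0 arrays, 7.15, 7.22, 7.02 and 6.58 at day 7 and 7.08, 7.13, 7.16 and 6.86 at day 10. No treated array reached the day 0 arrays. The differences were -0.80 ± 0.16 (limma adjusted p = 0.00559) and -0.73 ± 0.16 (0.0302), the first lost without F day 7 replicate 4 and the second without any 1 of 6 F arrays or any replicate number.

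Cxcl9 was the other member that passed in F. It read 3.45, 3.65, 3.46 and 4.06 at day 0 and 3.22, 2.93, 2.80 and 2.91 at day 10, with no overlap. The difference was -0.69 ± 0.16 (limma adjusted p = 0.0358), and it was not past the test in a fit on these groups alone (0.202) or without any 1 of 7 F arrays. Cxcl11 (0.65 ± 0.19, adjusted p = 0.15) and Cxcl13 (-1.05 ± 0.34, 0.247) in F at day 7, and Ccl2, a monocyte chemokine (-0.53 ± 0.16, 0.163), in F at day 10 did not pass.

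In LF, 4 members passed at day 7 (2.44% of all genes did) and 1 at day 10 (1.04%), all lower (2.05% and 0.363% of all genes were lower). Cxcl12 read 7.67, 8.11, 7.86 and 8.00 at day 0, 6.43, 6.75, 6.75 and 7.00 at day 7 and 7.21, 6.77, 7.21 and 6.88 at day 10. The treated arrays lay below every day 0 array, with differences of -1.18 ± 0.16 (limma adjusted p = 8.25e-06) and -0.89 ± 0.16 (0.000996). Cxcl13 read 7.06, 8.11, 7.46 and 6.74 at day 0, 5.50, 4.66, 5.43 and 5.68 at day 7 and 6.65, 6.01, 7.18 and 6.66 at day 10. Its day 7 arrays stood apart from day 0, 4.09-fold lower (-2.03 ± 0.34, limma adjusted p = 0.000323), while the day 10 arrays overlapped day 0. Without replicate number 2, the day 7 call of Cxcl13 and the day 10 call of Cxcl12 ended.

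Il33, an alarmin of barrier and stromal cells that signals through Il1rl1, passed in LF at day 7. It read 7.58, 7.84, 7.60 and 7.31 at day 0, 6.73, 6.33, 6.14 and 6.59 at day 7 and 8.24, 7.44, 7.29 and 7.15 at day 10. The day 7 arrays were all below the day 0 arrays, 2.2-fold (-1.14 ± 0.28, limma adjusted p = 0.0169), and the day 10 arrays again spanned the day 0 level. The call ended without any 1 of LF day 0 replicate 2, LF day 7 replicate 2 and LF day 7 replicate 3. Its group means in the other strains stayed between 6.64 and 7.21 on all days.

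Cxcl16 in LF read 9.81, 9.98, 9.67 and 9.61 at day 0 and 9.33, 9.16, 9.21 and 9.36 at day 7. The arrays did not overlap (-0.50 ± 0.13, limma adjusted p = 0.0239), and the call ended in a fit on these groups alone (0.0772) and without any 1 of LF day 0 replicates 1 and 2 and LF day 7 replicates 2 and 3. At day 10, Il24 (0.56 ± 0.16, adjusted p = 0.0743) and Cxcl9 (-0.47 ± 0.16, 0.234) in LF did not pass.

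In L, 0 members passed at day 7 and at day 10 (limma; 0% of all genes at both), with 6 members at an unadjusted p under 0.05 each day (7.14%, against 4.25% and 4.2% of all genes). The means of Cxcl12 in L were 7.88 ± 0.25, 7.31 ± 0.06 and 7.30 ± 0.19 on days 0, 7 and 10 (SD, n = 4). The treated arrays lay below the day 0 arrays, and the differences of -0.58 ± 0.16 at each day did not pass (limma adjusted p = 0.564 and 0.643). Ccl2 (-0.50 ± 0.16, adjusted p = 0.692) and Cxcl13 (-0.99 ± 0.34, 0.947) at day 7, and Il17f, an interleukin of T helper cells (-0.35 ± 0.12, 0.891), and Cx3cl1 (-0.35 ± 0.13, 0.999) at day 10 did not pass either.

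In FL, 0 members passed at day 7 (limma; 0.15% of all genes) and 0 at day 10 (0.025%), with 7 at an unadjusted p under 0.05 each day (8.33%, against 6.14% and 4.1% of all genes). Cxcl12 in FL had means of 7.56 ± 0.19, 7.12 ± 0.23 and 7.14 ± 0.47 at days 0, 7 and 10 (SD, n = 4), and its arrays overlapped between days. Its differences were -0.44 ± 0.16 (limma adjusted p = 0.637) and -0.43 ± 0.16 (0.945). Cxcl9 at day 7 (-0.47 ± 0.16, adjusted p = 0.531), Cxcr5 at both days (0.80, 0.637, and 0.99 ± 0.30, 0.498) and Cxcl11 (0.63 ± 0.19, 0.5) and Ccl21 (0.60 ± 0.20, 0.603) at day 10 did not pass.

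A difference between strains in the response was not shown for any member. In the test of 6 strain-by-day contrasts 0 of 84 passed (limma; 0.2% of all genes), and 9 had an unadjusted p under 0.05 (10.7%, against 6.72% of all genes). The smallest adjusted p was that of Ccl2 (0.179), whose means went from 5.92 ± 0.24 at day 0 through 5.65 ± 0.16 to 5.39 ± 0.13 at day 10 in F, and from 5.28 ± 0.24 through 5.53 ± 0.38 to 5.59 ± 0.19 in FL (SD, n = 4). Il17f (0.483) and Il2, the T cell growth factor (0.512), followed. The adjusted p was 0.716 for Cxcl13, 0.824 for Il33 and 0.85 for Cxcl12. That Cxcl13, Il33 and Cxcl16 passed in LF and not in another strain is thus no shown difference between strains.

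Between strains F and L, as means of 3 days, 9 of 84 members passed (10.7%, against 7.03% of all genes), 7 lower in F (4.54% of all genes) and 2 higher in F (2.49%). The lower ones were 3 CC ligands, 1 CXC ligand, 1 interleukin and 2 receptors. The median log2 difference was -0.005 over the members and -0.021 over all genes. Without replicate number 3 the count was 4 (3.49% of all genes), and without number 4 it was 5 (5.61%). Sequence differences between the strains under the probes were not tested.

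Ccl24, an eotaxin that draws eosinophils through Ccr3, differed most. In F it ran from 4.41 through 4.70 to 5.21 (12 arrays) and in L from 4.92 through 5.77 to 6.21, and in FL and LF from 3.87 through 4.69 to 5.36 and from 4.75 through 5.60 to 6.02. F and FL thus lay low and L and LF high, with overlap at the edges. F was 1.99-fold below L (-0.99 ± 0.13, limma adjusted p = 3.4e-07), with all 4 probe sets lower, by -1.40 to -0.33, and -1.14, -0.92, -0.98 and -0.94 within replicate numbers.

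Il4r, the receptor chain shared by Il4 and Il13 signalling, ran from 8.30 through 8.46 to 8.65 in F, from 8.60 through 8.77 to 9.0 in L, from 8.31 through 8.49 to 8.74 in FL and from 8.57 through 8.75 to 8.83 in LF. F and L barely overlapped. The difference was -0.32 ± 0.05, 1.25-fold (limma adjusted p = 3.19e-05), and all 18 probe sets were lower in F.

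Ccl9 and Ccl6, rodent CC chemokines that lie next to each other on chromosome 10, were lower in F. The median of Ccl9 was 4.69 in F (4.39 to 5.4) and 5.28 in L (4.97 to 5.77), a difference of -0.55 ± 0.11 (limma adjusted p = 0.000523). The median of Ccl6 was 4.85 in F (4.42 to 5.24) and 5.42 in L (4.83 to 5.99), a difference of -0.51 ± 0.13 (0.00761). Both overlapped between F and L. Of the probe sets, 5 of 6 for Ccl9 and 5 of 5 for Ccl6 were lower, with 1 for Ccl9 higher by 0.53. Without replicate number 3 neither passed, and Ccl6 did not pass without number 1.

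Il12a, a subunit of the T helper cytokine Il12, had medians of 4.09 in F and 4.39 in L (-0.34 ± 0.10, limma adjusted p = 0.0187). Ackr3, the scavenging receptor of Cxcl12, had medians of 6.66 and 7.13 (-0.44 ± 0.13, 0.0266), and Cxcl13 of 6.48 and 6.61 (-0.65 ± 0.20, 0.0335). The ranges of all of them overlapped between F and L. Il12a did not pass without replicate number 2, 3 or 4. With the mean of probe sets Il12a (adjusted p = 0.138) and Ackr3 (0.0575) did not pass, 12 single arrays ended the Cxcl13 call, and L day 0 replicates 1 and 3, L day 7 replicate 1 and L day 10 replicate 4 each ended that of Ackr3.

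Cxcl16 and Cxcl9 were higher in F. Cxcl16 ran from 9.59 through 9.93 to 10.14 in F and from 9.29 through 9.62 to 9.77 in L, a difference of 0.32 ± 0.07 (limma adjusted p = 0.00259) shared by its 6 probe sets. Cxcl9 ran from 2.80 through 3.30 to 4.06 in F and from 2.61 through 2.89 to 3.23 in L, a difference of 0.34 ± 0.09 (0.0138), with 6 of 7 probe sets higher, by up to 1.36, and the call ended without replicate number 1, 2 or 4. FL arrays had medians of 10.02 for Cxcl16 and 3.42 for Cxcl9, and LF arrays of 9.63 and 2.83. The ranges of F and L overlapped for both genes.

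**Figure D3:**
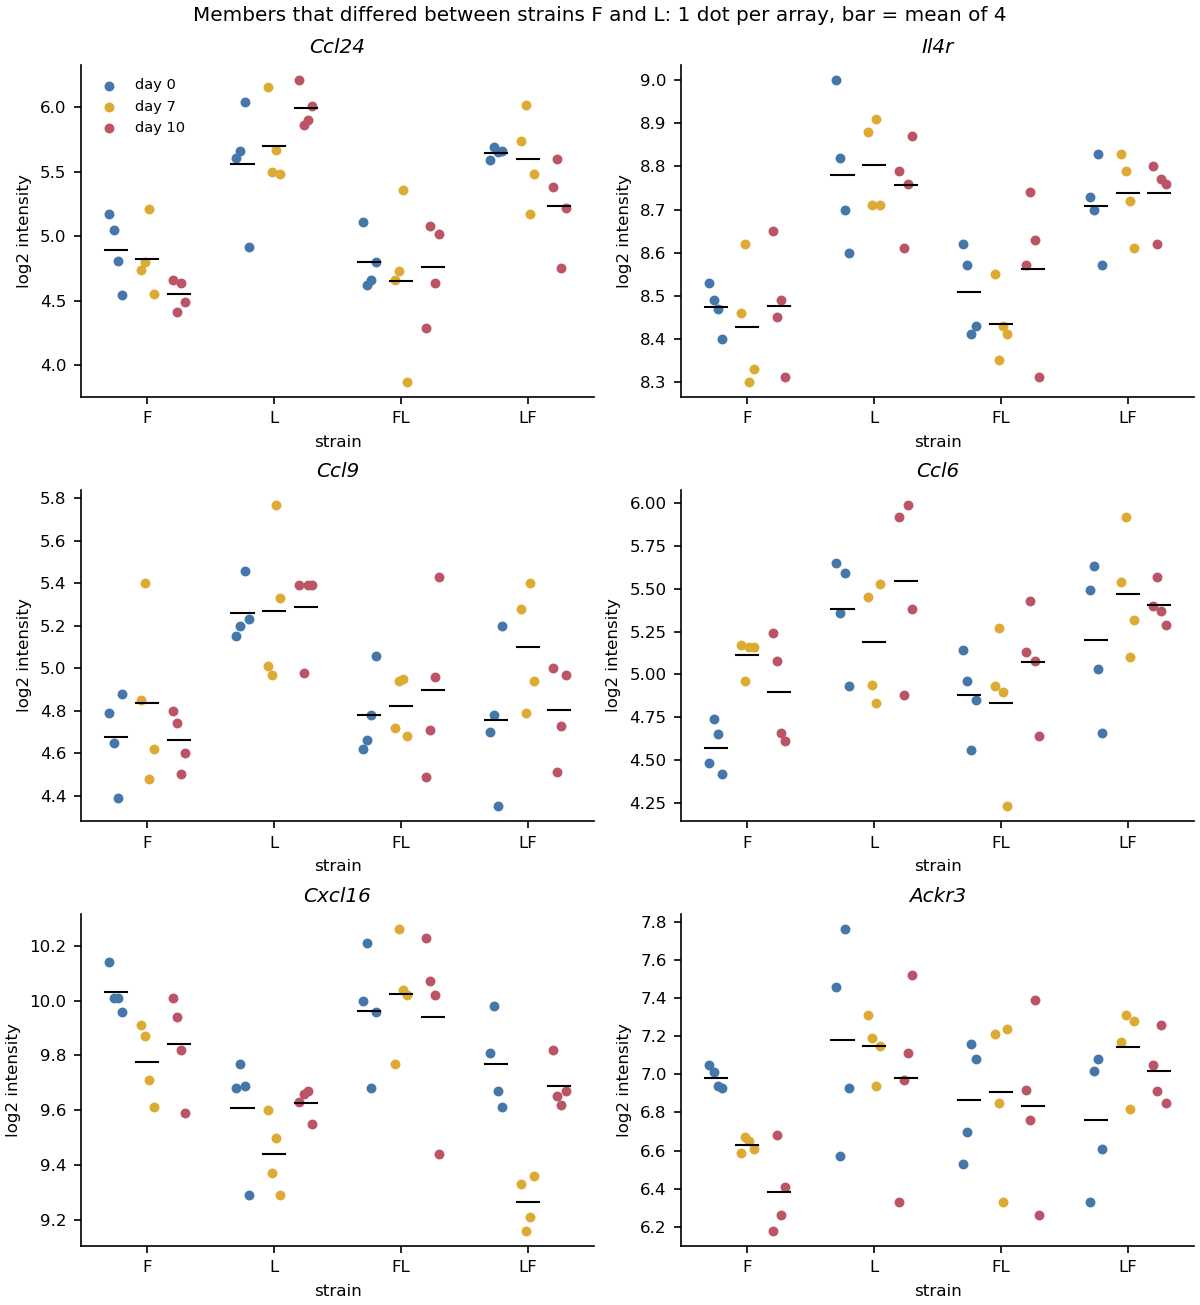
Log2 intensity of Ccl24, Il4r, Ccl9, Ccl6, Cxcl16 and Ackr3 on each array (1 dot, coloured by day) by strain, with bars at the mean of 4 arrays. For Ccl24 and Il4r the F and FL arrays lie low and the L and LF arrays high, with Ccl24 medians of 4.70, 4.69, 5.77 and 5.60 in F, FL, L and LF.

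The reciprocal strains were set against the strain whose letter comes first in their name. Between FL and F 0 members passed (limma; 0.35% of all genes), with 5 at an unadjusted p under 0.05 (5.95%, against 8.07% of all genes), led by Il3ra, the Il3 receptor chain (0.15 ± 0.07, adjusted p = 0.545), Il24 (-0.20 ± 0.09, 0.545) and Ccl20, the ligand of Ccr6 (-0.24 ± 0.11, 0.558). Between LF and L 1 member passed (0.675% of all genes did, 0.4% as higher in LF). This was Cxcl11, which ran from 6.54 through 6.93 to 7.58 in LF and from 5.73 through 6.58 to 6.96 in L. The ranges overlapped, and LF was 1.43-fold above L (0.51 ± 0.11, limma adjusted p = 0.0112), by 0.55, 0.77, 0.17 and 0.55 within replicate numbers. The call ended without number 1, 2 or 4. Il7, a lymphocyte survival factor (0.38 ± 0.11, adjusted p = 0.0969), and Ccl9 (-0.38 ± 0.11, 0.115) did not pass.

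In the F test for any difference among the 4 strains 9 of 84 members passed (10.7%, against 13.2% of all genes). They were Ccl24, Il4r, Cxcl16, Cxcl11, Cxcl9, Ccl9, Ccl6, Il1rap, the shared chain of Il1 family receptors (limma adjusted p = 0.0184), and Ccr1, a receptor of inflammatory CC ligands (0.0489). For F, L, FL and LF the Il1rap medians were 5.75, 5.82, 5.65 and 6.05, and those of Ccr1 were 3.14, 3.19, 2.98 and 3.27, with ranges that overlapped among all strains. The Il1rap call ended without replicate number 1, 2 or 3. The Ccr1 call ended with the array median subtracted (adjusted p = 0.0831) and without any 1 of 34 single arrays.

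**Figure D4:**
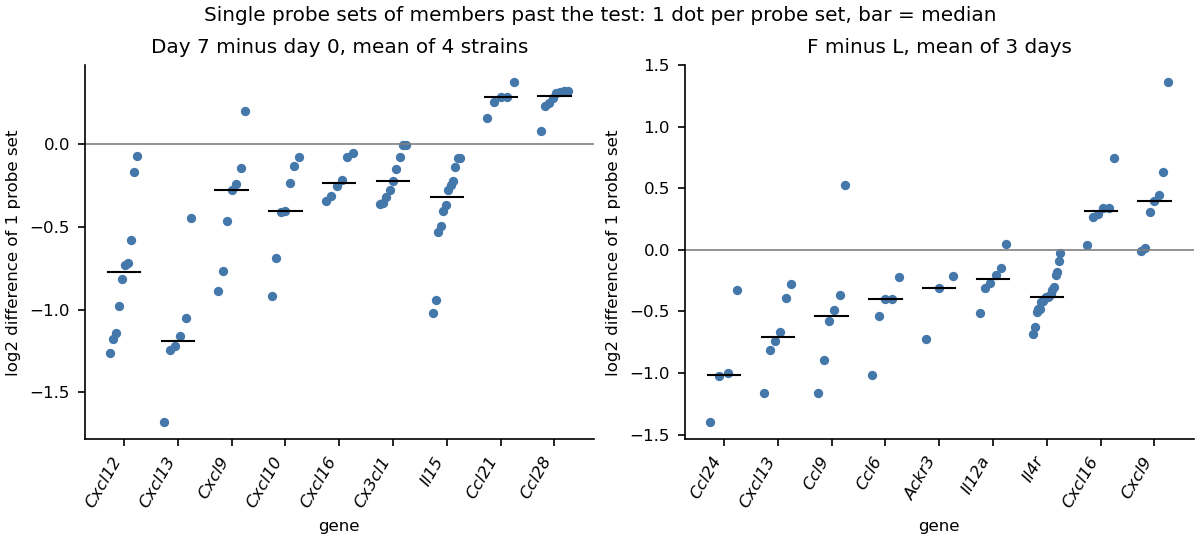
Log2 difference of every single probe set (1 dot each, bars at the median) of the members that passed at day 7 (left, mean of 4 strains) and between F and L (right, mean of 3 days). The 10 probe sets of Cxcl12 all lie below 0 at day 7, from -1.26 to -0.07, and 1 probe set of Ccl9 lies on the other side of 0 from the rest between F and L.

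Across the 12 group means Cxcl12 and Cxcl13 had a Pearson r of 0.90 with each other, given as a description. The genes whose group means were most like those of Cxcl12, among genes with 3 or more probe sets, were Umod (0.96), Igfbp5 (0.95), Igf1 (0.95), Slc14a2 (0.94) and Sostdc1 (0.93). Those most like Cxcl13 were Podxl (0.95), Dab2 (0.95), Asrgl1 (0.94), Slit3 (0.94) and Dzip1l (0.94). The 12 points share their arrays and scaling, and the mean array median had an r of 0.5 with Cxcl12 and of 0.7 with Cxcl13.

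Other cytokine genes and the signalling genes below the receptors were counted by list. Over all genes 4.98% passed at day 7 and 2.3% at day 10, and 21% and 9.7% had an unadjusted p under 0.05. Of 28 further listed ligands, mostly of the TNF, colony stimulating and gp130 families but with the Tgfb genes, Mif, Spp1, Pf4 and Ppbp among them, 21 were measured, and 0 passed at day 7 or day 10 by limma, with 3 at an unadjusted p under 0.05 at each day (at day 10 Clcf1, Tgfb3 and Cd40lg). Of 29 listed cytokine, chemoattractant and scavenging receptors 16 were measured, among them Ackr3, which is also a member. Osmr, the oncostatin M receptor, rose at day 10 (0.59 ± 0.13, limma adjusted p = 0.00379), and Tnfrsf12a, the TWEAK receptor, rose at day 7 (0.30 ± 0.07, 0.00449) and at day 10 (0.27 ± 0.07, 0.0141). Of 21 JAK, STAT and SOCS genes 11 were measured. At day 7, 3 of the 11 passed as lower (3.88% of all genes did). At that day 6 had an unadjusted p under 0.05, and the median difference was -0.15 (-0.27 to 0.39). At day 10, 4 had an unadjusted p under 0.05, with a median difference of -0.03. Only Stat3, the factor that gp130 receptors activate, passed at day 10, as higher (0.22 ± 0.05, limma adjusted p = 0.00583). Socs3, a feedback inhibitor induced by Stat3, differed by 0.50 ± 0.21 at day 10 (adjusted p = 0.309). Of 23 NF-kappa-B and Toll signalling genes 9 were measured and 0 passed at either day, with 0 at an unadjusted p under 0.05.

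Markers of other cell types moved with some of these results, and their part in them was not tested. Of 15 macrophage markers 9 were measured, and 3 were lower at day 7, among them Fcgr3a (-0.61, limma adjusted p = 0.00336) and Adgre1 (-0.38, 0.0313). The median difference of the 9 was -0.12 at day 7 (-0.61 to 0.09) and 0.01 at day 10 (-0.42 to 0.13). The mean level of the 9 per array ran from 5.77 to 6.54 at day 0, from 5.77 to 6.30 at day 7 and from 5.55 to 6.48 at day 10. At day 10, 0 passed and 3 had an unadjusted p under 0.05. Of these Adgre1 (-0.35) and Fcgr3a (-0.42) were lower and Itgam (0.11) was higher. Between F and L 4 of the 9 were lower in F, as were Ccl24, Ccl9 and Ccl6. In LF the macrophage marker mean went from 6.39 at day 0 to 5.91 at day 7 and 6.40 at day 10, beside the day 7 values of Cxcl13 and Il33 in that strain. In F, where Cxcl12 passed as lower at both days, the marker mean went from 6.04 through 6.02 to 5.75. The marker mean went from 6.32 through 6.07 to 6.23 in L and from 5.92 through 5.94 to 6.1 in FL.

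Of 10 endothelial markers 3 were measured, and Plvap (-0.27, limma adjusted p = 0.0158) and Emcn (-0.32, 0.00389) were lower at day 7. The mean level of the 3 per array ran from 7.96 to 8.76 at day 0 and from 7.92 to 8.41 at day 7. Of 12 T cell markers 9 were measured, with a median difference of 0.06 at day 7. Cd28 was lower (-0.37, limma adjusted p = 0.0279). Cd4 (-0.30, 0.0612), Ptprc (-0.29, 0.135) and Cd8b (-0.03, 0.825) had differences of the same sign that did not pass. Cd3d, Cd2, Zap70, Cd5 and Cd8a had differences of 0.06 to 0.10 that did not pass either. Between F and L, Cd4, which rat macrophages also carry, was lower in F (-0.59, limma adjusted p = 0.000202) and Zap70 was higher (0.20, 0.0464). The mean level of the 9 T cell markers per array ran from 4.92 to 5.20 at day 0, 4.81 to 5.20 at day 7 and 4.81 to 5.16 at day 10. Of 9 B cell markers only Cd79b was measured, and it did not pass (0.07 at day 7 and -0.04 at day 10). Of 9 neutrophil markers 5 were measured, with Mmp9 lower at day 7 (-0.32, limma adjusted p = 0.00844) and Fcnb higher at day 10 (0.24, 0.0293). Of 11 fibroblast and stromal markers 8 were measured, and Lum, a matrix proteoglycan, rose by 0.67 at day 7 and by 0.74 at day 10 (limma adjusted p = 5.34e-05 and 1.11e-05). Thy1 was lower at day 7 (-0.37, limma adjusted p = 0.0313), and the median of the 8 was -0.03. Log2 intensities have no zero, so no marker can be called absent.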

How the data were processed

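Kidney RNA was read on exon arrays, and strain and day, as labelled, set the group of each of the 48 arrays. What the authors deposited is a log2 intensity for every probe set on every array. The submitters' processing notes name RMA and limma without versions. Precision is limited by how many arrays a group has. Of 92401 probe sets 85406 had 1 platform gene symbol and were used, 1803 had several and 5192 had none. Of 8016 symbols 6113 were current in RefSeq for GRCr8, while 1876 were updated and 27 kept as they stood, which renamed 6 members (Cxcr7 to Ackr3, Ccl21b to Ccl21, Il8ra to Cxcr1, Il8rb to Cxcr2, Il4ra to Il4r and Il6ra to Il6r).

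A gene's value was the Tukey median polish over its probe sets, and 7997 genes were fitted in limma 3.58.1 (R 4.3.3) with 1 mean for each of the 12 groups, eBayes, and Benjamini-Hochberg adjustment over all genes within a comparison. The script was tested on simulated data. Promoters were read with Python 3.11.15 and pandas 2.3.3, and figures drawn with matplotlib 3.10.9. The members, the lists and the rule for named genes were chosen with earlier results of these data known. The text names Cxcl12 and Cxcl13, every member past a test, the 3 members with the smallest p in each comparison, the 5 with the widest range of group means, members with a single array far from the rest of its group, and from each other list up to 3 genes with the smallest p at day 10. Other marker genes that passed, and the receptors of called ligands, were picked with their values in view.

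The replicate number was taken as a batch through the array names in the labels. As a check of the pairing, each array's deviations from its group mean were correlated with those of arrays in other groups: the average was 0.0948 for the 264 pairs that share a number, of which 112 exceeded 0.1 and the lowest was -0.301, and -0.0316 for the 792 that do not. No 2 arrays were identical. Alternatives were a block for the replicate number, quantile normalization, subtraction of each array's median, the mean of probe sets, leaving out the lowest 33.3% of genes, fits on the compared groups alone, leaving out strain LF, and leaving out each array or each replicate number.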

Additional observations from a re-analysis of the deposited data

Results flagged for a closer look

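In 38 of 1008 sets of 4 arrays (84 genes by 12 groups, 3.77%) 1 array lay far from the others of its group, with a gap to its nearest neighbour above Dixon's critical share of the whole range. Chance flags about 1 in 20 groups. The 38 sets came from 29 genes, and the log2 level of the array is given against the lowest and highest of the others.

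Among chemokines, levels above the group were read for Ccl7 in L day 7 replicate 3 (4.26 against 4.04 to 4.07), Cxcl10 in F day 7 replicate 4 (6.0 against 5.66 to 5.71) and Cxcl10 in L day 7 replicate 1 (6.02 against 5.60 to 5.65). The same held above the group for Cxcl2 in L day 10 replicate 2 (3.68 against 3.42 to 3.46) and Cxcl3 in FL day 10 replicate 2 (3.89 against 3.46 to 3.50). Single arrays lay below the group for Ccl17 in LF day 7 replicate 3 (4.53 against 5.17 to 5.27), Ccl6 in F day 7 replicate 2 (4.96 against 5.16 to 5.17) and Ccl9 in L day 10 replicate 2 (4.98 against 5.39 to 5.39). The same held below the group for Cxcl11 in LF day 7 replicate 4 (6.54 against 6.88 to 6.93).

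Among chemokine receptors, levels above the group were read for Ccr1 in L day 7 replicate 2 (3.68 against 3.27 to 3.32), Cx3cr1 in LF day 7 replicate 4 (7.15 against 6.06 to 6.19) and Cxcr2 in L day 0 replicate 1 (4.22 against 3.78 to 3.81). Single arrays lay below the group for Ccr2 in F day 7 replicate 3 (3.52 against 4.12 to 4.16), Cx3cr1 in FL day 0 replicate 3 (6.14 against 6.57 to 6.63) and Cxcr3 in F day 7 replicate 4 (4.78 against 5.60 to 5.76).

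Among interleukins, levels above the group were read for Il12a in F day 0 replicate 1 (4.58 against 4.07 to 4.14), Il18 in L day 10 replicate 3 (3.85 against 3.62 to 3.66) and Il18 in LF day 10 replicate 1 (4.09 against 3.59 to 3.62). The same held above the group for Il3 in FL day 10 replicate 3 (2.55 against 2.39 to 2.40), Il5 in LF day 7 replicate 1 (2.94 against 2.37 to 2.47) and Il7 in F day 7 replicate 4 (3.30 against 3.08 to 3.11). Single arrays lay below the group for Il11 in FL day 10 replicate 1 (3.62 against 3.99 to 4.03), Il11 in LF day 10 replicate 1 (3.57 against 3.73 to 3.76) and Il18 in FL day 0 replicate 3 (3.28 against 3.64 to 3.67). The same held below the group for Il23a in F day 0 replicate 1 (4.22 against 4.66 to 4.67).

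Among interleukin receptors, antagonists and decoys, levels above the group were read for Il10ra in LF day 10 replicate 4 (4.86 against 4.75 to 4.76), Il11ra1 in LF day 10 replicate 2 (7.36 against 7.10 to 7.13) and Il13ra1 in LF day 10 replicate 1 (9.22 against 8.86 to 8.88). The same held above the group for Il18rap in LF day 0 replicate 3 (3.26 against 2.52 to 2.63), Il1rl2 in FL day 0 replicate 3 (3.98 against 3.48 to 3.55) and Il1rn in LF day 7 replicate 1 (3.45 against 2.96 to 3.02). Single arrays lay below the group for Il10ra in F day 10 replicate 4 (4.2 against 4.55 to 4.59), Il10ra in L day 0 replicate 4 (4.55 against 5.09 to 5.16) and Il17re in L day 7 replicate 1 (4.22 against 4.50 to 4.53). The same held below the group for Il18rap in F day 0 replicate 1 (2.44 against 2.73 to 2.74), Il1rl2 in LF day 0 replicate 2 (3.17 against 3.37 to 3.39) and Il2ra in L day 0 replicate 3 (3.23 against 3.72 to 3.73). The same held below the group for Il6st in FL day 10 replicate 4 (8.60 against 9.10 to 9.19). The arrays with the most such genes were F day 0 replicate 1, F day 7 replicate 4, FL day 0 replicate 3 and LF day 10 replicate 1, with 3 each. The widest gap was 0.96, that of Cx3cr1 in LF day 7 replicate 4.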

How the results depend on the processing

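The counts of members called kept within 1.5 times the reported ones under most alternatives. The replicate block raised the day 7 count from 9 to 14 while the share over all genes rose from 4.98% to 11.2%. It added 1 member at day 10, 2 for LF at day 7, 1 for F against L and 3 for any strain difference, none in the other comparisons, and ended no call of a named member. In these 4 comparisons, in this order, the share over all genes rose from 2.3% to 3.24%, 2.44% to 8.54%, 7.03% to 10.2% and 13.2% to 19.9%. Leaving out strain LF lowered the day 7 count to 3 and the day 10 count from 6 to 3, with fewer samples fitted (0.825% and 0.925% of all genes, against 4.98% and 2.3%). For day 10 in F (2 members, 0.375% of all genes) the count was 1 without the lowest 33.3% of genes (0.619% of the genes left). That setting takes out Cxcl9 itself, so its call was not run there. The count was also 1 when only the compared groups were fitted (0.2%). For day 10 in LF (1 member, 1.04% of all genes) it was 3 with quantile normalization (1.89%) and 2 with the mean of probe sets (0.913%). The mean of probe sets also gave 2 between LF and L (0.738%, against 1 member and 0.675%). The cause of the other differences was not tested. With an array or a replicate number left out, the counts ran from 3 to 11 at day 7, 1 to 7 at day 10, 0 to 1 for day 10 against day 7, 0 to 1 and 0 to 2 for days 7 and 10 in F, 1 to 9 and 0 to 3 in LF, 4 to 10 for F against L, 0 to 2 for LF against L and 6 to 11 for any strain difference. They were 0 throughout for L, FL, FL against F and the interaction. The share over all genes moved as well. In LF at day 7 it was 0.288% where 1 member passed (without number 2) and 5.04% where 9 passed (without number 4). At the lowest member counts it was 1.13% for day 10, 3.49% for F against L and 6.49% for any strain difference. No named difference reversed under any alternative run. Of 42 named differences 2 lost the call with quantile normalization, 3 with array medians subtracted and 4 with the mean of probe sets. The call was also lost by 3 of 23 in fits on the compared groups alone and by 9 of 15 without LF. Without the lowest 33.3% of genes only 34 of the 42 could be run, and these kept the call. Over all runs with an array or a replicate number left out, the call was lost in 277 of 2184. Cxcl12 at day 7 and day 10, Cxcl13 and Cxcl9 at day 7, and Ccl24, Il4r and Cxcl16 between F and L kept the call without any single array or replicate number. How far each probe set lies above background was not given, which limits what a small log2 difference can show. Of the members that passed a test, Cxcl9, Il24, Il12a and Ccr1 lay in the lowest 33.3% of genes by level.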
